A study of Mus musculus with 6 samples.

Results

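The genes described here are those of cholesterol synthesis, uptake and efflux in mouse splenic cDC2s, the type-2 subset of conventional dendritic cells. They were chosen by name, with earlier results of these data known, so that shares of members called are a description and not independent evidence. Of 33 symbols listed, 32 head a row of the count table of 14788 symbols, and all 32 passed the filter on low counts that left 11504 genes for testing. They comprise 17 enzymes of synthesis, 10 genes of SREBP2 control, uptake, transport and storage, and 5 genes of the liver X receptors (LXR) and efflux. The listed symbol without a row was that of the enzyme gene Msmo1; the table has a row under its older symbol, Sc4mol, whose values were seen before it was added here and which is in none of the counts of members.

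RNA sequencing was carried out on 3 libraries from Arhgef1-/- cells, called knockout below, and 3 libraries from wild-type (WT) cells. All came from spleens of the C57BL/6 strain, and the labels give no age, treatment or sorting gate for either group, nor which part of Arhgef1 was removed. The Arhgef1 protein is an exchange factor that switches on RhoA, a small GTPase. The labels do not say whether each replicate is its own animal; the p-values thus rest on a spread between libraries that could be technical. The source names place the knockout libraries and the WT libraries in different lanes of differently named runs, so lane, run and genotype cannot be told apart.

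Cholesterol is built from acetyl-CoA in a long chain of steps, first through mevalonate to farnesyl diphosphate, then through squalene and lanosterol to cholesterol. When sterol in the endoplasmic reticulum falls, the escort protein Scap carries the membrane-bound transcription factor SREBP2 to the Golgi, where it is cut free and switches on most genes of synthesis together with genes of uptake. Insig proteins hold Scap back when sterol is plentiful, and oxysterols made under the same condition activate LXR, which raises genes of efflux. In myeloid cells the LXR side of this balance is best known from macrophages that digest engulfed cells, while dividing cells draw on the synthesis side for new membrane.

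Promoter sequences are given first, because SREBP2 acts at promoters together with the factor NF-Y, which binds CCAAT. RefSeq promoter windows (build GRCm38.p6, which is the mm10 assembly), each reaching from 250 bases before to 50 bases after an annotated start, were matched by symbol to 27 of the 33 listed genes; Abcg1, Fdft1, Fdps, Npc1, Sqle and Stard4 had no entry. The 250 bases before the start are printed 5′ to 3′ for 4 enzyme genes that were higher in the knockout (Hmgcs1, Lss, Cyp51 and Hsd17b7), for Srebf2, and for 2 genes of the LXR and efflux group that were lower (Nr1h3 and Abca1). Capitals mark CCAAT or its reverse complement ATTGG, and in Hmgcs1 also a match to the sterol regulatory element motif TCACNCCAC.
Hmgcs1 (chr13:119690101-119690350, plus strand): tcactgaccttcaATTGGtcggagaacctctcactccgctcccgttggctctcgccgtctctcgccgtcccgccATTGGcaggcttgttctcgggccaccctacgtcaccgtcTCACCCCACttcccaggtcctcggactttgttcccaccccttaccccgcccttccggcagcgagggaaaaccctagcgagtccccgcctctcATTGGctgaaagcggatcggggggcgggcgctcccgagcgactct
Lss (chr10:76531355-76531604, plus strand): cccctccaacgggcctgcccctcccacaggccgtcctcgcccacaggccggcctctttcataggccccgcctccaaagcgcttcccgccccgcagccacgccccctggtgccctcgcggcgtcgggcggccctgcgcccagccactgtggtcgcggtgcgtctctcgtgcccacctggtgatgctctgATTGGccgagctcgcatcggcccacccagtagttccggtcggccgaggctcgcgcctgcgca
Cyp51 (chr5:4104698-4104947, minus strand): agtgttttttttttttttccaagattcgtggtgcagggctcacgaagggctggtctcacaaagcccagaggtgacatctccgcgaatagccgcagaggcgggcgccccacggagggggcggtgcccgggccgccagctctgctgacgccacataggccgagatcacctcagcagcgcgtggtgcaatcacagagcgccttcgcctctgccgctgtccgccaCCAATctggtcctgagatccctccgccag
Hsd17b7 (chr1:169969206-169969455, minus strand): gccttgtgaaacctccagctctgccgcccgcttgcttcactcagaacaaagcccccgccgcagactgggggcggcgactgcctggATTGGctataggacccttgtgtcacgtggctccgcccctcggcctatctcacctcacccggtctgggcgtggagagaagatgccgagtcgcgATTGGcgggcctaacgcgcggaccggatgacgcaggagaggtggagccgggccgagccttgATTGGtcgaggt
Srebf2 (chr15:82147019-82147268, plus strand): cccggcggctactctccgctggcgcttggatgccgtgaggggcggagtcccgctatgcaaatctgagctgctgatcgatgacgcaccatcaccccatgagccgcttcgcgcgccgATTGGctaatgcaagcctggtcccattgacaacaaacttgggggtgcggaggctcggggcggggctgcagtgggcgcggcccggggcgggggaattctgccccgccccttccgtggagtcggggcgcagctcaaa
Nr1h3 (chr2:91195117-91195366, minus strand): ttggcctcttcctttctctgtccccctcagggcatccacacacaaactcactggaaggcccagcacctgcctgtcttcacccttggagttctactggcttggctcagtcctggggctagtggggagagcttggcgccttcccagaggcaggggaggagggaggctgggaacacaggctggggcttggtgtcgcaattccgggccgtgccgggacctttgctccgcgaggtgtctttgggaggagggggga
Abca1 (chr4:53159896-53160145, minus strand): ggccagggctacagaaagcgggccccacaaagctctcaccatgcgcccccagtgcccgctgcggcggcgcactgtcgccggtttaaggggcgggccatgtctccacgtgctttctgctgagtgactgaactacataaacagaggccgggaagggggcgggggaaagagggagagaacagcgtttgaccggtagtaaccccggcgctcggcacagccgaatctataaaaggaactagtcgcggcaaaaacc
Within the printed stretches CCAAT occurred 3 times in Hmgcs1 (237, 176 and 45 bases before the start). It occurred 3 times in Hsd17b7 (165, 73 and 12 bases before the start) and once each in Lss, Cyp51 and Srebf2. The motif was not found in the printed stretches of Nr1h3 and Abca1. The Nr1h3 stretch lies wholly inside the gene as annotated by GENCODE, whose 5′ end is at chr2:91202834, and that start had no window. The stretches of Lss, Cyp51, Hsd17b7 and Srebf2 also reach past the GENCODE 5′ ends of their genes. The CCAAT of Cyp51 and the one 12 bases before the start of Hsd17b7 thus lie inside the GENCODE genes. Over whole windows, read on both strands, 14 of the 15 synthesis genes with an entry, Msmo1 included, had CCAAT in at least 1 window, Acat2 being the exception. So did 7 of 8 control and uptake genes and 0 of 4 LXR and efflux genes (7 windows). Dhcr7 counted only through its window starting at chr7:143829964, which lies inside the gene as annotated by GENCODE (5′ end at chr7:143823145). A count by gene favours genes with several windows. Counted by window the motif was in 14 of 18 windows of synthesis genes and 7 of 11 of control and uptake genes, against 37.4% of all 32851 RefSeq windows and 38.7% of the 10483 windows that belong to genes tested here. The sterol element TCACNCCAC was found in 1 of the 36 windows of listed genes, that of Hmgcs1, 137 bases before the start, and in 1.24% of all windows. Its shorter core CACNCCAC, which the longer motif contains, was in windows of Hmgcs1, Acat2 and Insig1 and in 6.24% of all windows. Other motifs were searched as well. The GC box GGGCGG was in 15 of 18 windows of synthesis genes, 10 of 11 of control and uptake genes and 1 of 7 of LXR and efflux genes, against 61.6% of windows of tested genes. The E-box CACGTG was in 7 of the 36 windows and in 10.05% of windows of tested genes, and the direct repeat bound by LXR (DR4, exact half-sites) was in 0 of the 36. All of these are exact matches of letters in a short window and no measurement of binding. Sites that differ from a motif at any fixed letter were not counted. The LXR repeat with 2 perfect half-sites was rare everywhere. It was in 5 of all 32851 windows and in 0 of the 10483 windows of tested genes. Its absence from the 36 windows therefore does not separate the listed genes from others. Nor does it show that they lack LXR sites, since imperfect repeats, in the Abca1 stretch or elsewhere, were not searched for.

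In Arhgef1-/- cDC2s the synthesis enzymes were the part of the pathway that rose: 8 of 17 passed the test upward and 0 downward. Of the 10 control and uptake genes 2 rose and 1 fell, and of the 5 LXR and efflux genes 3 fell and 0 rose. The test was edgeR's quasi-likelihood test with Benjamini-Hochberg adjustment over all 11504 genes, of which 5.09% were called higher and 4.58% lower, 9.67% in either direction. No synthesis enzyme was lower and no LXR or efflux gene higher at an unadjusted p below 0.05 (0 in each case), nor by DESeq2 or limma-voom (0 each). The median log2 fold change was 1.08 for synthesis, -0.06 for control and uptake and -1.27 for LXR and efflux, while that of all tested genes was 0.00.

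**Figure D1:**
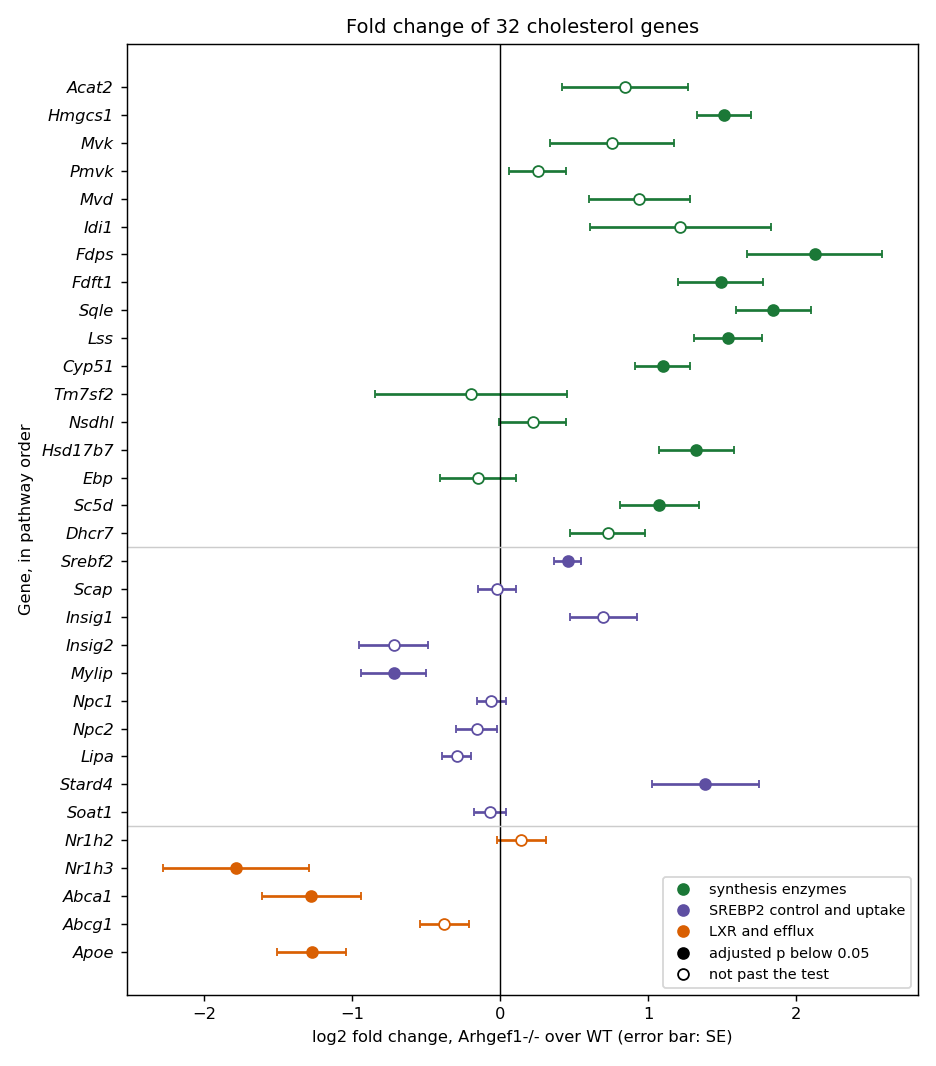
Log2 fold change (knockout over WT) of each of the 32 genes with its SE, in pathway order from top to bottom. Filled points passed the test at an adjusted p below 0.05. The 8 filled synthesis points lie between 1.08 and 2.13, and the 3 filled LXR and efflux points between -1.79 and -1.27.

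Levels are given in CPM, the reads of a gene per fixed library size, scaled by edgeR's TMM factors. In the mevalonate arm 2 of 7 enzymes passed the test, both upward. Hmgcs1, which condenses acetyl-CoA units into the precursor of mevalonate, stood at 64.2, 115 and 103 CPM in the knockout libraries, against 28.6, 36.8 and 34.1 CPM in the WT libraries. Every knockout library lay above every WT library, the first knockout library nearest to WT. The log2 fold change was 1.51 ± 0.18 (SE; edgeR adjusted p = 4.75e-05). Fdps, which makes the farnesyl diphosphate from which both sterols and protein prenyl groups derive, stood at 4.999, 12.2 and 14.8 CPM in the knockout and 1.24, 3.45 and 2.71 CPM in WT. The WT libraries held 13 to 30 reads of it, and its groups did not overlap. Its fold change, 2.13 ± 0.46 on the log2 scale (edgeR adjusted p = 0.00587), ranked 10 of the 11504 genes.

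The other 5 mevalonate enzymes had positive fold changes without passing the test. The decarboxylase gene Mvd averaged 16.8 ± 7.42 CPM in the knockout and 8.81 ± 2.9998 CPM in WT (SD, n = 3 each; log2 fold change 0.94 ± 0.34, edgeR adjusted p = 0.0951). Its first knockout library, at 9.07 CPM, lay inside the WT range of 5.36 to 10.8 CPM, and without that library Mvd passed (1.24, edgeR adjusted p = 0.0196). Idi1, the isomerase that makes the second five-carbon building block, was scarce, at 3.10 CPM in the knockout and 1.34 CPM in WT (1.22 ± 0.61). The thiolase gene Acat2 had a log2 fold change of 0.85 ± 0.42 and the kinase genes Mvk and Pmvk had 0.76 ± 0.42 and 0.25 ± 0.19. Acat2 has a close neighbouring copy, Acat3, whose reads the counting may have mixed with its own; Acat3 had 3.20 CPM in the knockout and 1.51 CPM in WT.

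In the squalene and sterol arm 6 of 10 enzymes rose. Fdft1, squalene synthase, which commits farnesyl diphosphate to sterols, stood at 21.4, 41.9 and 29.9 CPM in the knockout and 7.56, 9.08 and 16.7 CPM in WT. The groups did not overlap (1.49 ± 0.29, edgeR adjusted p = 0.00284). Fdft1 shares exon positions on the opposite strand with Ctsb, and no strand setting is given in the sources used here; Ctsb moved the other way (-0.70 ± 0.10). Sqle, the epoxidase that is a slow step of the pathway, stood at 27.8, 63.2 and 60.7 CPM in the knockout, against 16.55, 11.96 and 13.7 CPM in WT. Knockout replicates 2 and 3 were far above WT and replicate 1 closer to it (1.85 ± 0.25, edgeR adjusted p = 1.34e-04). Lss, which closes squalene epoxide into lanosterol, stood at 22.3, 36.7 and 27.3 CPM in the knockout and 9.09, 10.3 and 10.3 CPM in WT. Its WT values were the tightest of the 8 enzymes (SD 0.702 CPM), and the log2 fold change was 1.54 ± 0.23 (edgeR adjusted p = 2.79e-04).

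Past lanosterol, as in the mevalonate arm, only some of the enzymes passed the test. Cyp51, the lanosterol demethylase, stood at 77.1, 127 and 123 CPM in the knockout and 37.7, 54.9 and 60.7 CPM in WT. It rose by 1.10 ± 0.18 (edgeR adjusted p = 7.98e-04), and its groups did not overlap; it shares exon positions with Akap9 on the opposite strand, which had a log2 fold change of -0.12. Hsd17b7, a ketoreductase of the demethylation steps, stood at 17.7, 37.2 and 33.9 CPM in the knockout and 11.4, 10.8 and 13.3 CPM in WT (1.32 ± 0.25, edgeR adjusted p = 0.00259). Sc5d, the late desaturase, stood at 16.4, 27.5 and 27.1 CPM in the knockout and 7.65, 14.1 and 12.02 CPM in WT (1.08 ± 0.27, edgeR adjusted p = 0.0161). The Sc5d groups did not overlap, but its call was lost without knockout replicate 2 (0.95), knockout replicate 3 (0.97) or WT replicate 1 (0.86). The row Sc4mol, for the methyl oxidase Msmo1, had 18.5, 28.4 and 21.0 CPM in the knockout and 9.28, 12.5 and 10.96 CPM in WT (1.05 ± 0.24, edgeR adjusted p = 0.00891); without knockout replicate 2 (0.85) or WT replicate 1 (0.95) it did not pass.

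The remaining 4 enzymes of this arm did not pass the test. Dhcr7, the reductase of the last step, had 17.4, 16.53 and 28.6 CPM in the knockout and 14.3, 13.1 and 10.5 CPM in WT, so that its groups did not overlap (0.73 ± 0.25, edgeR adjusted p = 0.0830). Nsdhl, which works beside Hsd17b7 in demethylation, averaged 20.6 ± 4.10 CPM in the knockout and 17.7 ± 3.16 CPM in WT (SD, n = 3 each; 0.22 ± 0.22). The isomerase gene Ebp averaged 12.98 ± 1.15 CPM in the knockout and 14.4 ± 3.74 CPM in WT (-0.15 ± 0.26). The sterol reductase gene Tm7sf2 had 0.814, 1.24 and 6.30 CPM in the knockout and 4.50, 2.64 and 2.59 CPM in WT, and its fold change moved between -1.64 and 0.23 when single libraries were left out. In 9 of the 17 enzymes all 3 knockout libraries lay above all 3 WT libraries, a pattern held by 13.7% of all genes tested; in 0 of the 17 did they all lie below, a pattern held by 13.5%.

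**Figure D2:**
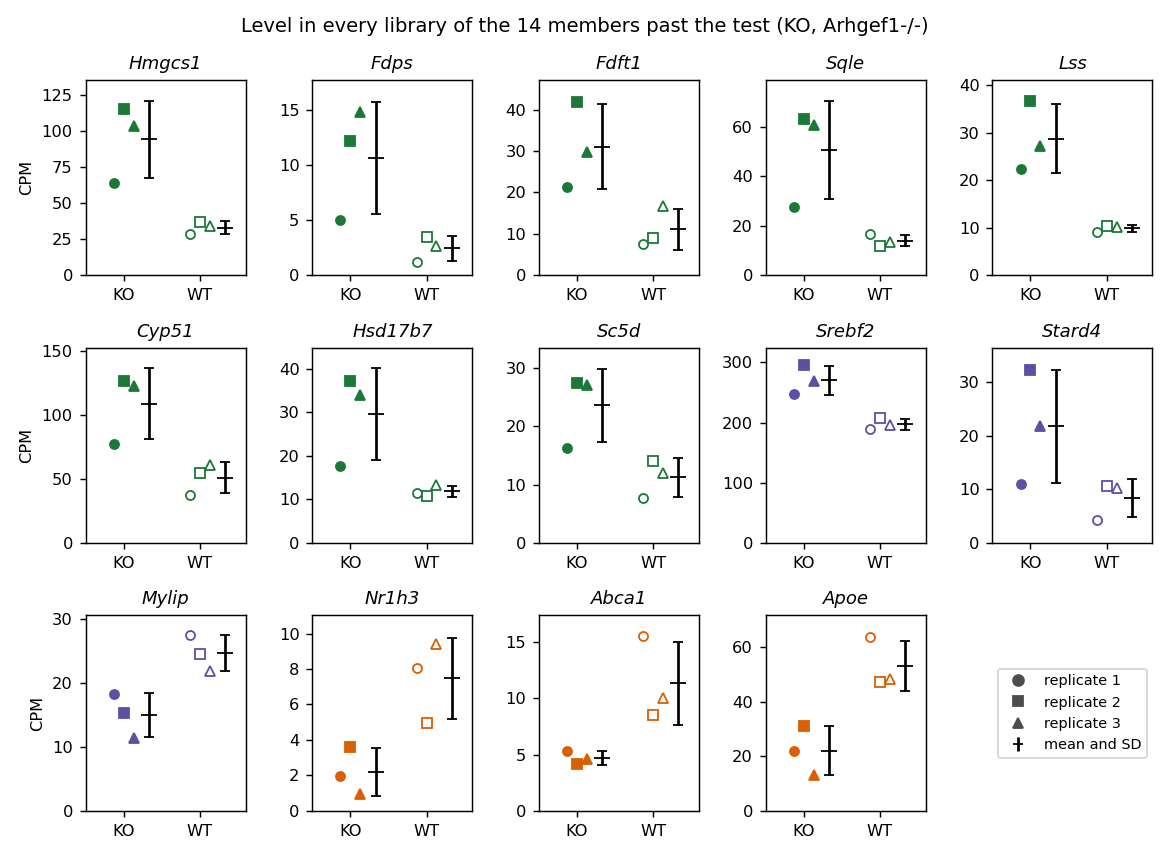
CPM in each library for the 14 members that passed the test, one panel a gene, with the y axis starting at 0; knockout points are filled and WT points open, the marker shape gives the replicate, and the bar is the mean with its SD. The first knockout library is the lowest of the knockout libraries in all 10 genes that rose.

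The genes that govern SREBP2 differed among themselves. Srebf2, which encodes SREBP2 itself, stood at 247, 295 and 268 CPM in the knockout and 189, 207 and 196 CPM in WT. Its groups did not overlap, and it rose by 0.45 ± 0.09 on the log2 scale (edgeR adjusted p = 0.00407), a smaller fold change than that of any of the 8 enzymes that rose. Scap, the escort protein gene, averaged 58.0 ± 2.92 CPM in the knockout and 58.9 ± 2.34 CPM in WT (SD, n = 3 each; -0.02 ± 0.13, edgeR adjusted p = 0.950).

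The paralogs Insig1 and Insig2, which both encode retention proteins for Scap, had fold changes of opposite sign, neither past the test. Insig1, itself a target of SREBP2, had 21.6, 42.7 and 40.9 CPM in the knockout and 19.3, 23.6 and 22.2 CPM in WT (0.70 ± 0.22, edgeR adjusted p = 0.0574). Its first knockout library lay within the WT range and the others far above it. Insig2 had 12.8, 15.9 and 14.1 CPM in the knockout and 31.0, 22.1 and 17.4 CPM in WT, with every knockout library below every WT library (-0.72 ± 0.24, edgeR adjusted p = 0.0619). The ratio of Insig1 to Insig2 CPM within a library was 1.69, 2.68 and 2.89 in the knockout and 0.623, 1.07 and 1.27 in WT. Both passed with DESeq2 (adjusted p = 0.0366 for Insig1 and 0.0394 for Insig2). Insig1 also passed without knockout replicate 1 (0.95, edgeR adjusted p = 0.00334), with total counts in place of TMM (0.73, edgeR adjusted p = 0.0484) and with no filter on low counts (0.70, edgeR adjusted p = 0.0428). Insig2 also passed without WT replicate 3 (-0.89, edgeR adjusted p = 0.0393).

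Among genes of uptake, transport and storage 1 of 6 rose and 1 fell. Stard4, which carries cholesterol between membranes and is a known SREBP2 target, had 11.04, 32.2 and 21.9 CPM in the knockout and 4.30, 10.6 and 10.3 CPM in WT. The first knockout library exceeded the highest WT library by a small margin (1.39 ± 0.36, edgeR adjusted p = 0.0209). Mylip, an LXR target whose product marks lipoprotein receptors for degradation, had 18.3, 15.4 and 11.4 CPM in the knockout and 27.6, 24.5 and 21.9 CPM in WT. Its groups did not overlap (-0.72 ± 0.22, edgeR adjusted p = 0.0470). Stard4 lost its call without knockout replicate 2 (0.99), knockout replicate 3 (1.39) or WT replicate 1 (1.06). Mylip was not called with total counts in place of TMM (-0.69), nor when any library other than knockout replicate 1 was left out (-0.80 to -0.55).

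The genes that free, export or store cholesterol inside the cell showed small differences. Lipa, the lysosomal acid lipase, had 194, 238 and 232 CPM in the knockout and 294, 259 and 262 CPM in WT, without overlap and without passing the test (-0.29 ± 0.10, edgeR adjusted p = 0.0665). Lipa passed as lower with a minimum of 5 CPM in at least 3 libraries (-0.30, edgeR adjusted p = 0.0499) and with DESeq2 (-0.29, adjusted p = 0.0369). Npc1 and Npc2, which pass cholesterol out of the lysosome, had log2 fold changes of -0.06 ± 0.10 and -0.16 ± 0.14, and Soat1, which esterifies cholesterol for storage, had -0.07 ± 0.11. Npc1 averaged 194.9 ± 4.37 CPM in the knockout and 203 ± 22.3 CPM in WT, and Soat1 averaged 164 ± 23.0 CPM in the knockout and 172 ± 14.4 CPM in WT (SD, n = 3 each).

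On the LXR side, 3 of 5 genes fell. Nr1h3, the gene of LXR alpha, had 1.98, 3.62 and 0.937 CPM in the knockout and 8.04, 4.94 and 9.43 CPM in WT, that is 11 to 35 reads a library against 43 to 84. The groups did not overlap (-1.79 ± 0.50, edgeR adjusted p = 0.0294). Nr1h2, the gene of the widely expressed LXR beta, averaged 34.2 ± 4.76 CPM in the knockout and 31.1 ± 1.27 CPM in WT (SD, n = 3 each; 0.14 ± 0.17, edgeR adjusted p = 0.684). Abca1, a transporter that hands cholesterol to lipid-poor apolipoprotein, had 5.35, 4.13 and 4.60 CPM in the knockout, against 15.5, 8.51 and 10.02 CPM in WT (-1.28 ± 0.33, edgeR adjusted p = 0.0213). The knockout values were close together and all below WT. Abcg1, which exports cholesterol to larger particles, had 58.7, 39.7 and 59.6 CPM in the knockout and 79.5, 60.4 and 65.2 CPM in WT; the groups were separated by less than 1 CPM and the test was not passed (-0.38 ± 0.16, edgeR adjusted p = 0.173). Apoe, whose product carries the exported lipid, had 22.0, 31.1 and 13.2 CPM in the knockout and 63.8, 47.3 and 48.4 CPM in WT. Its groups were well apart (-1.27 ± 0.23, edgeR adjusted p = 0.00165).

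Apoe was past the test in all 13 alternatives. Abca1 was not without knockout replicate 2 (-1.20), knockout replicate 3 (-1.26) or WT replicate 1 (-0.98). Nr1h3 was not without knockout replicate 1 (-1.73), knockout replicate 3 (-1.40), WT replicate 1 (-1.73) or WT replicate 3 (-1.58), and stood at -2.38 without knockout replicate 2. With knockout replicate 3 or WT replicate 1 left out, 1 of the 5 genes was called lower. Bulk RNA cannot tell fewer cells of a type from less RNA per cell, and macrophages express Apoe, Abca1 and Nr1h3. Of 18 tested macrophage markers 14 fell in the same libraries, with a median log2 fold change of -1.75. The 19 markers in the table summed to 299 to 468 CPM in the knockout and 815 to 1270.1 CPM in WT, and Vsig4 was the one at 0 in the knockout libraries. The part of macrophage RNA in the fall of the LXR and efflux genes was not tested.

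**Figure D3:**
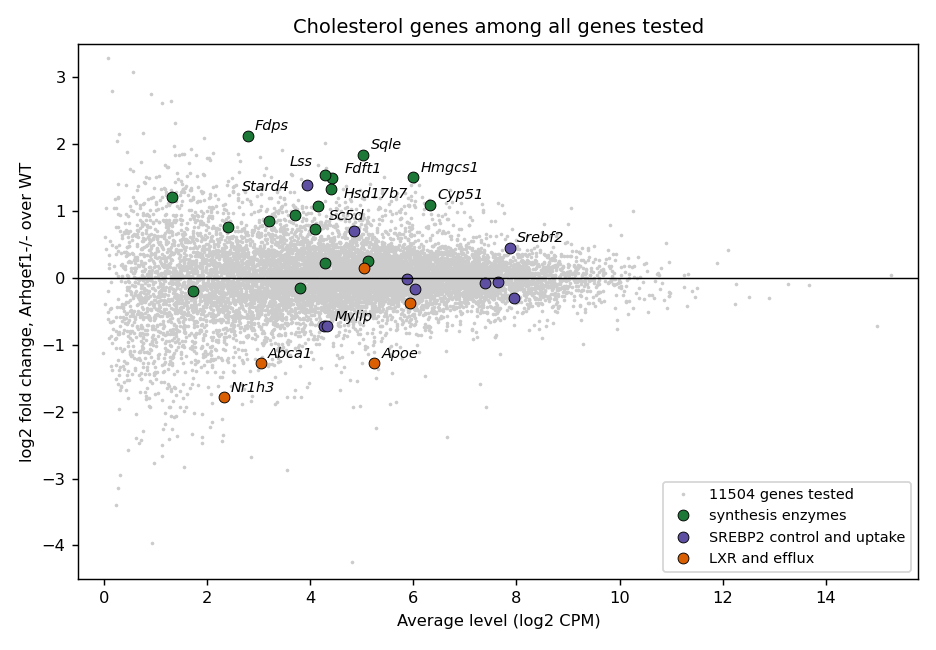
Log2 fold change (knockout over WT) against average level in log2 CPM for all 11504 tested genes (grey) and the 32 members (coloured by group); the 14 members past the test are named. Synthesis genes that rose lie from Fdps at the left to Cyp51 at the right, and Nr1h3, Abca1 and Apoe lie below 0.

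Summed over the group, synthesis enzymes took 348, 606 and 576 CPM in knockout replicates 1, 2 and 3 and 217, 244 and 273 CPM in WT replicates 1, 2 and 3. The knockout sum averaged 2.08 times the WT sum, and the groups did not overlap. The control and uptake genes summed to 958 to 1141 CPM in the knockout and 986 to 1101 CPM in WT, a ratio of 1.01 with overlapping ranges. The LXR and efflux genes summed to 114 to 117 CPM in the knockout and 152 to 197 CPM in WT, a ratio of 0.676 without overlap. Within a library, synthesis over LXR and efflux came to 2.98, 5.31 and 4.94 in the knockout and 1.11, 1.603 and 1.65 in WT. These sums weight each gene by its level and no test was made on them.

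**Figure D4:**
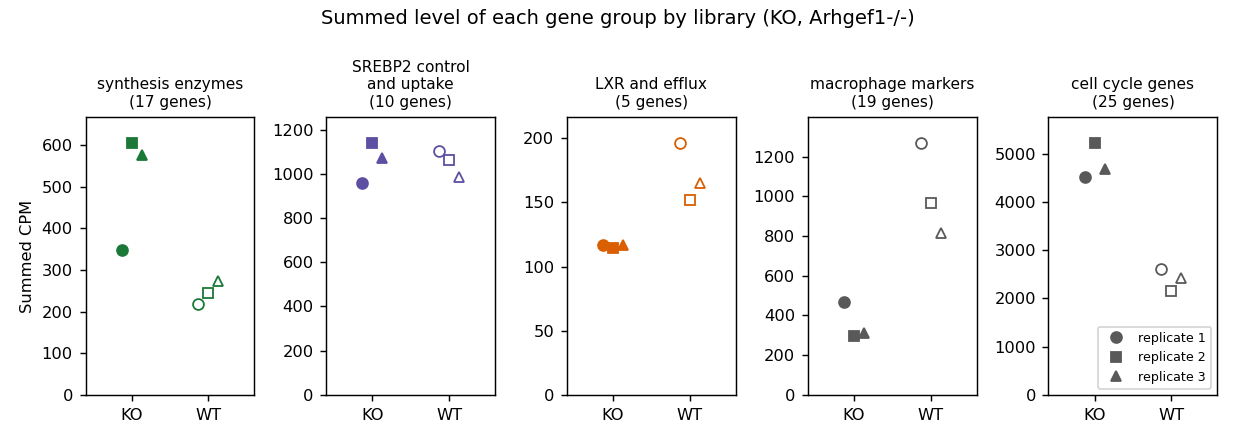
Summed CPM in each library for the synthesis, control and uptake, and LXR and efflux genes, and for the macrophage and cell cycle lists; knockout points are filled and on the left, WT points open and on the right, and every axis starts at 0. The synthesis sum of knockout replicate 1 (348 CPM) lies between the WT libraries and the other knockout libraries, and the control and uptake sums overlap.

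Knockout replicate 1 stood apart in these genes. It was the lowest of the knockout libraries in all 10 members that rose and in 15 of the 17 synthesis enzymes, called or not. Among all genes called higher it was the lowest in 54.8%, and among all 11504 genes tested in 3733. It also had the highest macrophage sum of the knockout libraries, 468 CPM, against 299 and 309.5 CPM in replicates 2 and 3. Some markers of other cells, though not all, were also highest in it among the knockout libraries. The 3 neutrophil markers summed to 15.6 CPM in replicate 1, against 0.207 and 2.47 CPM in replicates 2 and 3. S100a9 stood at 11.04, 0.103 and 0.937 CPM in these libraries. In the WT libraries the neutrophil sum was 1.41 to 2.53 CPM. The cDC1 markers Clec9a and Xcr1 had 33.5 and 29.8 CPM in replicate 1. They had 5.99 and 10.1 CPM in replicate 2 and 5.71 and 6.13 CPM in replicate 3. WT libraries had 8.25 to 20.9 CPM of Clec9a and 11.7 to 19.8 CPM of Xcr1. Of the 6 cDC1 markers 1, Wdfy4, was lowest in replicate 1 (1749, 1804 and 1753 CPM in replicates 1, 2 and 3). The T cell gene Cd3e had 6.04, 0.103 and 1.45 CPM in replicates 1, 2 and 3, and 1.53, 2.41 and 5.89 CPM in WT. The 8 B cell markers summed to 95.9, 91.3 and 73.5 CPM in the knockout libraries. The 6 plasmacytoid dendritic cell markers summed to 326, 283 and 327 CPM there, and the 3 erythroid markers to 7.32, 9.20 and 7.49 CPM. The part of these cells in the lower synthesis values of replicate 1 was not tested. Without replicate 1, 9 of 17 enzymes were called higher and their median log2 fold change was 1.28. The LXR and efflux sums of the knockout libraries, 117, 114 and 116.5 CPM, did not single it out.

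**Figure D5:**
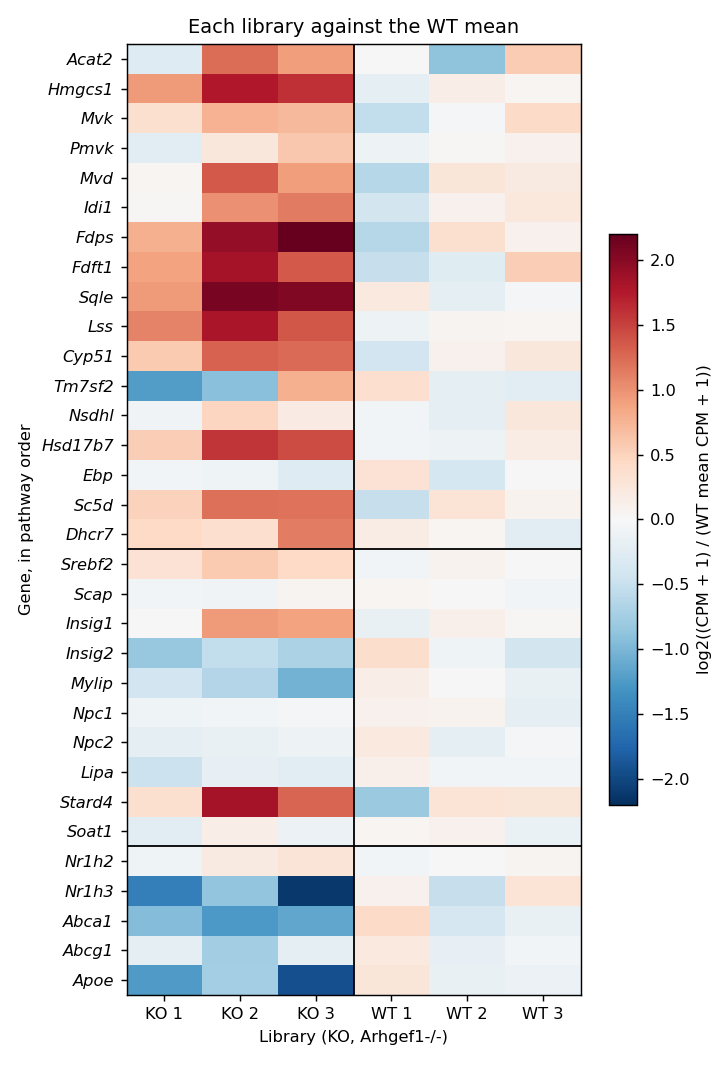
Each library of each of the 32 genes as log2 of its CPM plus 1 over the WT mean CPM plus 1, red above and blue below the WT mean; knockout libraries are the left 3 columns and WT libraries the right 3. The red block of synthesis genes is paler in the first knockout column, and the darker blue rows at the foot are Nr1h3, Abca1 and Apoe.

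Cell cycle genes were higher in the same libraries. Of 25 tested 24 rose, with a median of 1.05, and they summed to 4513 to 5226 CPM in the knockout and 2143 to 2610 CPM in WT. Within the knockout, replicate 1 had the lowest cell cycle sum (4513 CPM), against 5226 and 4681 CPM in replicates 2 and 3. Whether the synthesis genes rose in dividing cells alone was not tested. Of 13 tested cDC2 markers 12 had negative fold changes, and 6 fell and 0 rose (edgeR; 0 also at an unadjusted p below 0.05 and by DESeq2 and limma-voom). The largest fall was that of the lectin gene Cd209a, at 77.6 CPM in the knockout and 233 CPM in WT (-1.59 ± 0.10, edgeR adjusted p = 3.79e-08). The others that fell were Cd4 (-0.67), Clec4a4 (-0.40), Sirpa (-0.32), H2-Ab1 (-0.30) and H2-Aa (-0.28). Itgax (1261 CPM in the knockout and 1404 CPM in WT) and Irf4 (429 CPM in the knockout and 425 CPM in WT) did not pass, and Clec10a was nearly absent (0.278 CPM in the knockout and 0.389 CPM in WT). The part of this shift in cDC2 markers in the cholesterol results was not tested. Arhgef1 itself was at 129 ± 14.8 CPM in the knockout and 283 ± 35.5 CPM in WT (SD, n = 3 each). Total counts ran from 8408325 to 11714365 a library.

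Read per kilobase of exon (all annotated exons of a gene merged, which lowers the value of genes with rare long exons), the levels could be compared between members. In the knockout the highest were Srebf2 (37.6 CPM per kilobase), Lipa (32.6), Cyp51 (24.7), Pmvk (21.9) and Hmgcs1 (20.5). In WT they were Lipa (40.0 CPM per kilobase), Srebf2 (27.4), Apoe (24.9), Pmvk (18.5) and Npc1 (17.9). Apoe stood at 10.3 CPM per kilobase in the knockout, and Hmgcs1 at 7.22 CPM per kilobase in WT. Abca1 was scarce in both, with 0.453 CPM per kilobase in the knockout and 1.09 CPM per kilobase in WT, and Abcg1 was the more abundant transporter with 7.22 CPM per kilobase in the knockout and 9.36 CPM per kilobase in WT.

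Other genes of the pathway were read from lists outside the 33. Of 9 further tested genes of sterol synthesis and SREBP2 response 3 rose and 0 fell (edgeR; also 0 fell at an unadjusted p below 0.05 and by DESeq2 and limma-voom), with a median log2 fold change of 0.39. In the isoprenoid branch, which takes farnesyl and geranylgeranyl groups to proteins, dolichol and ubiquinone, 0 of 15 genes passed (median 0.14; 2 higher and 0 lower at an unadjusted edgeR p below 0.05, and 0 by DESeq2 or limma-voom). Of 14 genes that cut SREBP or degrade its sterol-sensing partners 1 passed: Rnf145, a ubiquitin ligase gene that LXR is known to induce, averaged 102 CPM in the knockout and 136 CPM in WT (-0.41 ± 0.11, edgeR adjusted p = 0.0245). Of 21 genes of sterol transfer and endosomal cholesterol 1 passed, the lysosomal membrane protein gene Scarb2 (-0.58 ± 0.18, edgeR adjusted p = 0.0454). Rnf145 was not called when any library other than knockout replicate 1 was left out (-0.43 to -0.35). Scarb2 was not called in the same 5 cases (-0.63 to -0.47), nor with total counts (-0.54) or with the replicate number as a block (-0.58).

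Of 5 tested oxysterol genes 2 fell. Cyp27a1, whose product makes an oxysterol that activates LXR, averaged 91.7 CPM in the knockout and 148 CPM in WT (-0.69 ± 0.12, edgeR adjusted p = 0.00138). Hsd17b11 averaged 42.5 CPM in the knockout and 64.5 CPM in WT (-0.60 ± 0.15, edgeR adjusted p = 0.0175), a call lost without knockout replicate 2 (-0.59), knockout replicate 3 (-0.49), WT replicate 1 (-0.62) or WT replicate 3 (-0.53). Gpr183, the oxysterol receptor that positions cDC2s in the spleen, did not pass (195 CPM in the knockout and 183 CPM in WT, 0.09 ± 0.09, edgeR adjusted p = 0.604). The further LXR targets and partners were mixed, with 3 of 15 higher and 2 lower and a median of -0.07. Scd2, a fatty acid desaturase gene that SREBPs also raise, had a log2 fold change of 0.67 ± 0.15, and the phospholipid transfer protein gene Pltp had 0.78 ± 0.24. Cd5l (-1.89 ± 0.36) and Mertk (-1.78 ± 0.40), which are also on the macrophage list, were the genes that fell. Leaving out WT replicate 1 ended the calls of Mertk (-1.37) and Pltp (0.68), and leaving out knockout replicate 2 those of Scd2 (0.49) and Pltp (0.52). Without knockout replicate 3 (0.81) or WT replicate 2 (0.73) Pltp was not called, and without WT replicate 3 Scd2 was not (0.56). Pltp was also not called by limma-voom (0.77) or with the replicate block (0.75).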

How the data were processed

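RNA from splenic cDC2s was sequenced in 3 knockout and 3 WT libraries, with group and replicate taken from the titles in the labels. The authors deposited raw, whole-number counts for each symbol without normalization. The submitters' processing notes list STAR, HTSeq, DESeq2 and build mm10, while the versions, the annotation and the strand setting were not given in the sources used here. Reads of genes that overlap on opposite strands may therefore be mixed. Fdps, Nr1h3 and Tm7sf2 share exon positions on the same strand with Gm43738, Gm13783 and Vps51, which no strand setting separates. Those 3 overlapping genes have no row under these symbols.

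The test was edgeR's (4.0.16, R 4.3.3) quasi-likelihood test of genotype after filterByExpr, with TMM factors of 0.977 to 1.02 and Benjamini-Hochberg adjustment; an adjusted p below 0.05 is a call. The F statistic gave each SE. The procedure was run on simulated counts in which only genes above a minimum level were changed. That run does not cover the scarcest genes, lane and run, or mixed cells. The alternatives were 13: other scalings and filters, DESeq2 1.42.0, limma-voom (limma 3.58.1), a replicate block and each library left out. Gene positions and exon lengths came from GENCODE vM21 (mm10). The members, their groups and the other lists were chosen with earlier results of these data known. Library totals ran from 8408325 to 11714365 counts. The rule for names took all members, Arhgef1 and up to 4 genes with the smallest p of each pathway list; some genes it takes are not reported here.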

Additional observations from a re-analysis of the deposited data

How the results depend on the processing

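Over 13 alternatives the 8 calls of synthesis enzymes ranged from 7 to 9 with single libraries left out and stayed at 8 in the others. Among 413 values of single members, 385 kept their side of the threshold, 19 lost a call (Sc5d, Stard4, Mylip, Nr1h3 and Abca1), 9 gained one and 0 reversed. Control and uptake genes called lower numbered 0 with total counts without TMM, 2 with a minimum of 5 CPM in at least 3 libraries and 3 with DESeq2, against 1, and those called higher numbered 3 with total counts, with no filter on low counts and with DESeq2, against 2. Over all genes, total counts gave 692 higher and 431 lower, against 586 and 527. Under that stricter minimum Nr1h3 was not tested, and the median of the LXR and efflux genes was -0.83. With single libraries left out, control and uptake genes called higher ranged from 1 to 3 and called lower from 0 to 1, LXR and efflux genes called lower from 1 to 3, and the LXR and efflux median from -1.35 to -0.98; all genes called higher ranged from 310 to 583 and lower from 264 to 489. The cause was not tested. No pairing of the samples by replicate number was seen (correlations of same-numbered deviations 0.04, -0.03 and -0.03, and not every library correlated best with its own number). With 3 libraries a group a weak pairing could be missed. With the replicate number as a block 496 genes were higher and 449 lower, and synthesis (8), control and uptake (2 higher, 1 lower) and LXR and efflux (3 lower) kept their counts. Low read counts limit the precision of Idi1, Tm7sf2, Nr1h3 and Fdps.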
